A study of Arabidopsis thaliana with 18 samples.

Results

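The 10 type-A response regulator genes of *Arabidopsis thaliana* were examined for peaks of BRIP1 and BRIP2, out of 27444 protein-coding nuclear genes. They were taken by locus: ARR3 (AT1G59940), ARR4 (AT1G10470), ARR5 (AT3G48100), ARR6 (AT5G62920), ARR7 (AT1G19050), ARR8 (AT2G41310), ARR9 (AT3G57040), ARR15 (AT1G74890), ARR16 (AT2G40670) and ARR17 (AT3G56380). A gene was counted in a library when a peak summit lay between 3000 bp upstream of its transcription start site (TSS) and 1000 bp past its 3′ end. RefSeq lists ARR8 under the symbol RR3, with ARR8 as a further name, so the locus and not the symbol decided which gene was meant.

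BRIP1 and BRIP2 are subunits of the SWI/SNF chromatin remodelling complexes that form around the ATPase BRAHMA (BRM). The series holds 18 samples, of which 4 chromatin immunoprecipitation sequencing (ChIP-seq) libraries were analysed: BRIP1-GFP in brm-1 and BRIP2-GFP in brm-1, 2 biological replicates each. All 4 came from seedlings aged 14 days, grown on 1/2MS medium at 22 degrees with 16 h of light and 8 h of dark, and immunoprecipitated with an antibody to GFP (ab290). The brm-1 allele, a mutation of BRM, was therefore shared by both groups, and nothing here compares plants with and without BRM. The promoters that drove the fusions are not given in the sources used here, and no library of plants without a GFP fusion was analysed, so signal that does not need a fusion cannot be told apart from binding. The antibody field of BRIP1-GFP replicate 2 reads none, against its title, which was followed.

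Type-A response regulators are short proteins that receive a phosphoryl group in the cytokinin relay and dampen the response, which makes them negative feedback regulators of the hormone. Cytokinin is sensed by histidine kinase receptors, phosphotransfer proteins carry the signal into the nucleus, and type-B response regulators, which are DNA-binding factors, switch on the type-A genes within minutes. The type-B factors recognise a core of AGATT or AGATC. The type-A genes fall into 5 pairs of close relatives, ARR3 with ARR4, ARR5 with ARR6, ARR7 with ARR15, ARR8 with ARR9 and ARR16 with ARR17.

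The sequences at which the results turn are given first, as RefSeq TAIR10.1 gives them, 5′ to 3′ on the gene's strand. Capitals on either strand mark the type-B core in both forms, the G-box (CACGTG) and the GA repeat, searched as GAGAGAGA. The 250 bases before the TSS of ARR7 (chr1:6579315-6579564, minus strand), which held 3 of its 4 summits, are shown with the same stretch of its relative ARR15 (chr1:28133026-28133275, minus strand), which had no peak. The 300 bases before the TSS of ARR16 (chr2:16969373-16969672, plus strand) held the summit position that 2 libraries shared. The 50 bases on each side of the median summit of the ARR8 site found in all 4 libraries (chr2:17220450-17220550, plus strand), with the summit itself, hold none of the marked words.
ARR7 upstream: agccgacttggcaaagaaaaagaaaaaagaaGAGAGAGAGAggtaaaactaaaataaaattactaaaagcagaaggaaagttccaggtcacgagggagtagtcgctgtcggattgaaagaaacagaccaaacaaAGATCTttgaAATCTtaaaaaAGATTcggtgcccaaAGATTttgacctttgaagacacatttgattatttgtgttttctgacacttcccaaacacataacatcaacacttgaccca
ARR15 upstream: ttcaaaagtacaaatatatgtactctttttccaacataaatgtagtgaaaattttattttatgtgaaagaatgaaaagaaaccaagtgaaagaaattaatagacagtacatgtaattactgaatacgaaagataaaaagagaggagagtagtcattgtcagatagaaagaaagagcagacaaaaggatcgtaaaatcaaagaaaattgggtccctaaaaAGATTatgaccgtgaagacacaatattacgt
ARR16 upstream: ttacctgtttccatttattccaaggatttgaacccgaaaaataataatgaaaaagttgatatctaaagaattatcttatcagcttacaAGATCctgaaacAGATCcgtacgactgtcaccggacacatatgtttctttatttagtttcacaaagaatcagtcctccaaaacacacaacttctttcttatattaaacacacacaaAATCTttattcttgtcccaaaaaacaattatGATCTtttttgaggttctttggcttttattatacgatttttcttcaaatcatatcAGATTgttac
ARR8 summit: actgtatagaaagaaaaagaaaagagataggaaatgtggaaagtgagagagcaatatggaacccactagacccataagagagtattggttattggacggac

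Peaks were found at 8 of the 10 genes, and BRIP2 was called at more of them than BRIP1. ARR7, ARR8 and ARR16 had a summit in all 4 libraries, a rule that 14.9% of all protein-coding genes met. The same 3 genes were the ones with a summit in both BRIP1 libraries (15.8% of all genes), whereas 8 genes had one in both BRIP2 libraries (26.7% of all genes). ARR6 and ARR15 had no summit in any library, as did 60.4% of all genes. By library, 3 of the 10 genes had a summit in BRIP1 replicate 1 (16.8% of all genes), 7 in BRIP1 replicate 2 (24.1%), 8 in BRIP2 replicate 1 (36.1%) and 8 in BRIP2 replicate 2 (29.0%). The median gene span of the members, 2342.5 bp, was near that of all protein-coding genes, 2078 bp. The difference between the proteins in the number of genes was not tested.

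List length moved with these counts. BRIP1 replicate 1 had 3637 nuclear peaks, BRIP1 replicate 2 had 5343, and the BRIP2 libraries had 7877 and 6288. Without BRIP1 replicate 1, ARR4, ARR5, ARR9 and ARR17 joined the other 3 genes, so that 7 had a summit in every library left, against 20.5% of all genes. Without BRIP1 replicate 2, the library whose antibody field contradicts its title, 3 members had a summit in every library left, against 15.5% of all genes. The 8 genes in both BRIP2 libraries became 5 with lists of equal length, 5 with a −log10 q of at least 10, 5 with a window from 1000 bp upstream to the 3′ end, and 2 with peaks of fold 3 or more, where 14.3, 13.6, 14.2 and 8.71% of all genes met the same rule. They became 6 within 2000 bp of the TSS and 6 by the nearest TSS, against 19.3 and 15.8% of all genes. ARR5 and ARR17, whose summits lay in the 5′ UTR of a neighbouring gene, dropped out in both settings.

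**Figure D1:**
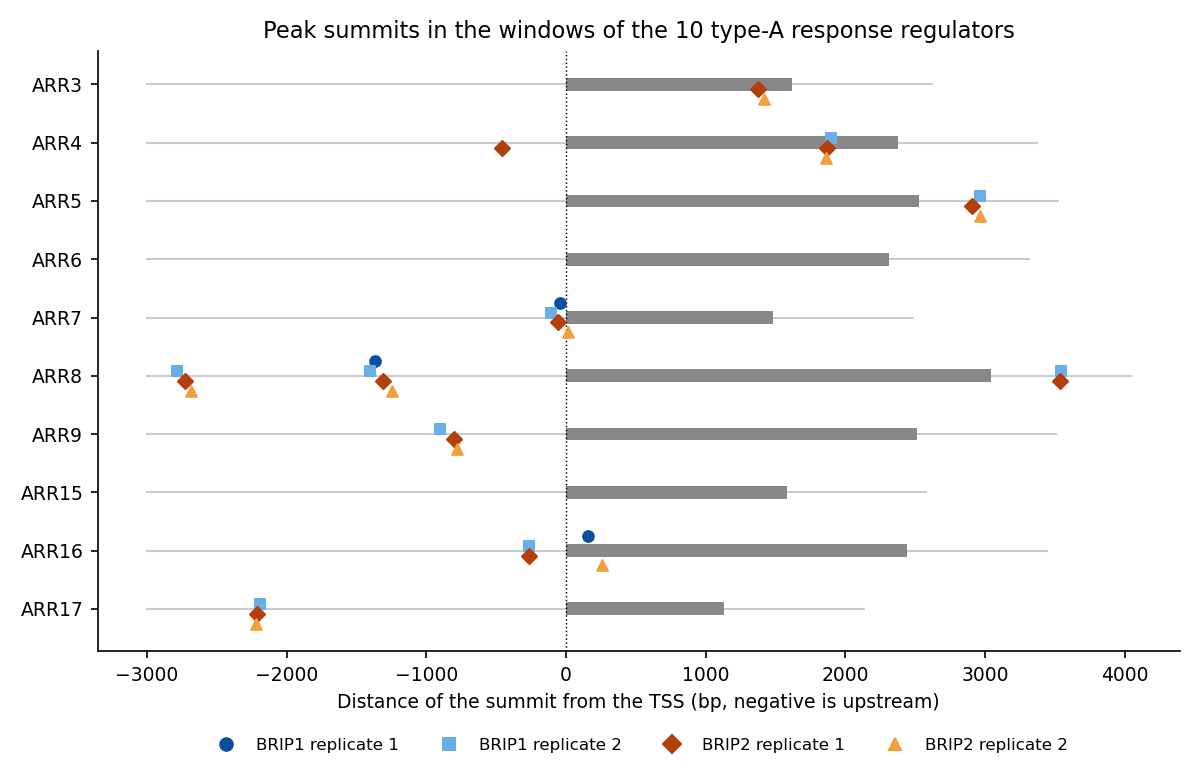
Summits of the 4 libraries in the windows of the 10 genes. The x axis is the distance from the TSS in bp, grey bars are gene bodies, thin lines the windows, and each marker is 1 peak. ARR6 and ARR15 carry no marker, and the ARR7 and ARR16 summits lie within 300 bp of the TSS.

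The 32 peaks at these genes formed 11 sites of overlapping peaks. Of these, 3 sites had a peak of all 4 libraries, 5 of 3 libraries, 2 of 2 libraries and 1 of a single library. The member's own TSS was the nearest of any protein-coding gene in every library at 7 sites and in none at 3 sites. Peak strength below is the fold over control at the summit, as the authors' peak caller gave it, and the percentile rank of a peak is that of its fold among the nuclear peaks of its own library.

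ARR7 carried the strongest peak of the family in 3 of the 4 libraries, placed on its start site. In BRIP2 replicate 2 an ARR8 site, with a fold of 3.67, was above it. With ARR15 it is known to be repressed by WUSCHEL in the shoot meristem and to act in the embryonic root. BRIP1-GFP gave folds of 3.85 and 3.23 there in replicates 1 and 2, and BRIP2-GFP gave 4.56 and 3.55. These peaks ranked at percentiles 91.7 and 81.5 of the BRIP1 lists and 95.4 and 83.9 of the BRIP2 lists, so all 4 were among the upper peaks of their libraries and the proteins overlapped. In the same order the summits were -44, -110, -61 and 11 bp away from the start, the last of them (BRIP2 replicate 2) in the 5′ UTR and the others intergenic. All 4 peaks covered the TSS, and the site spanned chr1:6579011-6580151. The gene itself lies at chr1:6577833-6579314 on the minus strand and has 5 exons.

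Behind the ARR7 folds stood 124 fragments over the summit in BRIP1 replicate 1 (95% Poisson interval 103 to 148), 135 in BRIP1 replicate 2 (113 to 160), 139 in BRIP2 replicate 1 (117 to 164) and 85 in BRIP2 replicate 2 (67.9 to 105.1). The background of these libraries was 31.5, 41.2, 29.7 and 23.2 fragments, below every interval, and it was the control value at each of the 4 summits. The intervals cover counting error only, and at called peaks they lie above background by the calling itself. BRIP1 averaged 3.54 ± 0.44 and BRIP2 averaged 4.05 ± 0.72 (SD, n = 2 libraries each), a BRIP2 minus BRIP1 difference of 0.19 on the log2 scale that was smaller than the spread between replicates (two-sided exact permutation test, p = 0.667).

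ARR15, the relative of ARR7, had no peak from any library in its window. It lies at chr1:28131447-28133025 on the minus strand. Its nearest summits were 12916 bp away in BRIP1 replicate 1, 10945 bp in BRIP1 replicate 2, 10986 bp in BRIP2 replicate 1 and 10945 bp in BRIP2 replicate 2, all upstream. The pair therefore differed in every library. In the 250 bases printed above, the matches to AGATT or AGATC numbered 5 at ARR7 and 1 at ARR15, where a palindromic AGATCT counts once on each strand.

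ARR8 had 3 sites, more than any other member, and the middle one was found in all 4 libraries. There BRIP1-GFP gave folds of 2.62 and 2.56 and BRIP2-GFP folds of 3.04 and 3.67. Both BRIP2 values were above both BRIP1 values, an order that 60.7% of the 2982 regions with a peak of all 4 libraries also showed. Summits were found -1368, -1402, -1312 and -1245 bp away from the start, all intergenic, in a site at chr2:17220146-17220822, and the gene lies at chr2:17221840-17224880 on the plus strand. Fragments over the summit numbered 84 (95% Poisson interval 67.0 to 104), 107 (87.7 to 129), 93 (75.1 to 114) and 88 (70.6 to 108) in the same order of libraries.

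At this ARR8 site BRIP1 averaged 2.59 ± 0.039 and BRIP2 averaged 3.35 ± 0.45 (SD, n = 2 libraries each). The BRIP2 minus BRIP1 difference was 0.37 on the log2 scale, against a median of 0.22 over the 2982 regions. The two-sided exact permutation test gave p = 0.33, the smallest that 2 libraries against 2 can give, and 0.667 after Benjamini-Hochberg adjustment over the 3 sites tested.

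**Figure D2:**
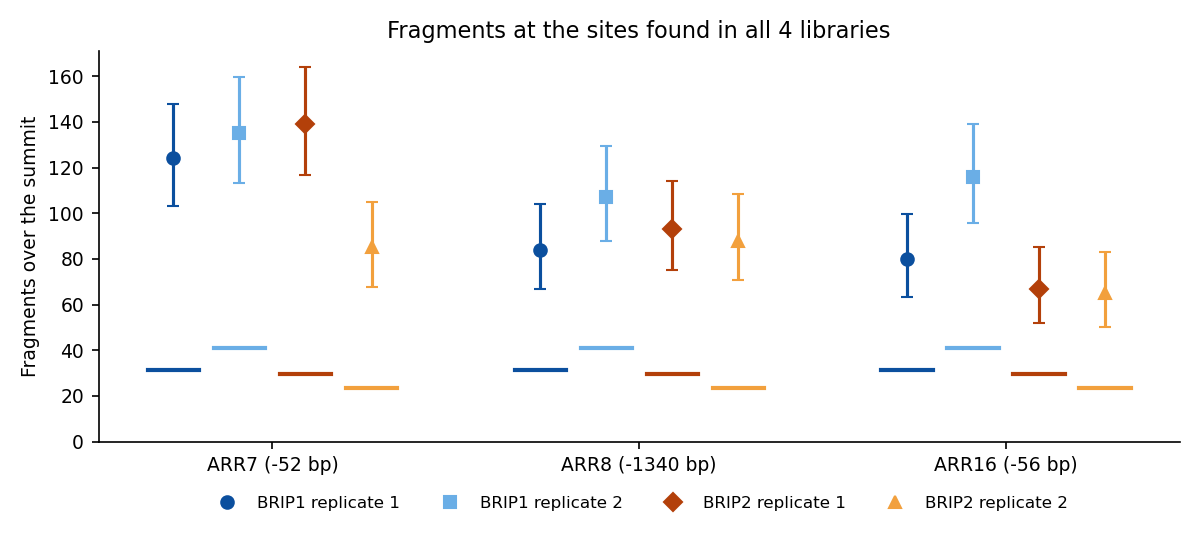
Fragments over the summit (y axis, from 0) at the sites of ARR7, ARR8 and ARR16 found in all 4 libraries. Points are single libraries with 95% Poisson intervals and short bars are the background of each library, from 23.2 to 41.2 fragments. Every interval lies above its own background, which follows from the sites being called peaks and is no further support for them.

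The other ARR8 sites were each missed by at least 1 library. The far upstream site had a fold of 1.99 in BRIP1 replicate 2, 2.31 in BRIP2 replicate 1 and 2.83 in BRIP2 replicate 2, with summits at -2783, -2725 and -2683 bp. In BRIP1 replicate 2 the TSS of SSL1 (AT2G41300), a strictosidine synthase-like gene on the other side, was nearer by a few bases than that of ARR8. At this site the control was above background in the BRIP2 libraries, 1.18 and 1.16 times. The site past the 3′ end had 2.30 in BRIP1 replicate 2 and 3.32 in BRIP2 replicate 1, at 505 and 494 bp from the 3′ end, where the nearest TSS was that of AT2G41330. Neither site was called in BRIP1 replicate 1.

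ARR9, the relative of ARR8, had a single broad site upstream of its start. Its fold was 2.35 in BRIP1 replicate 2, 2.94 in BRIP2 replicate 1 and 2.97 in BRIP2 replicate 2, with no peak in BRIP1 replicate 1. The peaks were 1620, 1732 and 1666 bp wide, against medians of 479 to 535 bp over the lists, and both BRIP2 peaks covered the TSS at chr3:21109059-21111567 (the gene, plus strand). The summits lay at -904, -803 and -779 bp, in an exon of the long non-coding RNA gene AT3G08815, while the nearest protein-coding TSS was that of ARR9. The BRIP2 mean was 2.96 ± 0.019 (SD, n = 2), and BRIP1 replicate 2 was below both BRIP2 values. Of the 2982 regions with a peak of all 4 libraries, 60.7% had both BRIP2 folds above both BRIP1 folds. ARR9, without a peak in BRIP1 replicate 1, is not one of these regions, so that share is not its background.

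ARR16 was called in all 4 libraries, with its summits at 3 positions around its start. ARR16 is known for its expression in the stomatal lineage. BRIP1-GFP gave folds of 2.49 and 2.77 and BRIP2-GFP folds of 2.12 and 2.72, so the proteins overlapped. The summit was at -269 bp in BRIP1 replicate 2 and in BRIP2 replicate 1, and in the 5′ UTR at 158 bp in BRIP1 replicate 1 and at 260 bp in BRIP2 replicate 2. The upstream position was thus used by 1 library of each protein, and so was the 5′ UTR. All 4 peaks covered the TSS, in a site at chr2:16969184-16970098, and the gene lies at chr2:16969673-16972113 on the plus strand.

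At ARR16 BRIP1 averaged 2.63 ± 0.20 and BRIP2 averaged 2.42 ± 0.43 (SD, n = 2 libraries each). The BRIP2 minus BRIP1 difference of -0.13 on the log2 scale was within the spread between replicates (two-sided exact permutation test, p = 0.667), and without BRIP2 replicate 1 it became 0.050. Without BRIP1 replicate 2 the difference was 0.064 at ARR7, 0.35 at ARR8 and -0.055 at ARR16. Fragments over the summit numbered 80 (95% Poisson interval 63.4 to 99.6), 116 (95.9 to 139), 67 (51.9 to 85.1) and 65 (50.2 to 82.8). The ranks, at percentiles 44.6, 66.9, 19.2 and 54.9, placed ARR16 lower in its lists than ARR7 in every library. With a −log10 q of at least 10, with lists of equal length or with fold 3 or more, ARR16 was no longer called in all 4 libraries.

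At ARR17, the relative of ARR16, the only site lay on the start of the neighbouring gene. Its fold was 2.73 in BRIP1 replicate 2, 2.96 in BRIP2 replicate 1 and 3.30 in BRIP2 replicate 2, with no peak in BRIP1 replicate 1. The summits were -2191, -2210 and -2223 bp from the ARR17 TSS, but 7, 26 and 39 bp inside the TSS of AT3G56370, in its 5′ UTR. Counted by the nearest TSS, ARR17 (chr3:20905264-20906397, plus strand) had no summit of its own. The BRIP1 replicate 2 fold was below both BRIP2 folds, and BRIP1 replicate 2 also had the lowest median fold of the lists, 2.44. In their own lists these peaks ranked at percentiles 64.9, 68.8 and 77.7.

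**Figure D3:**
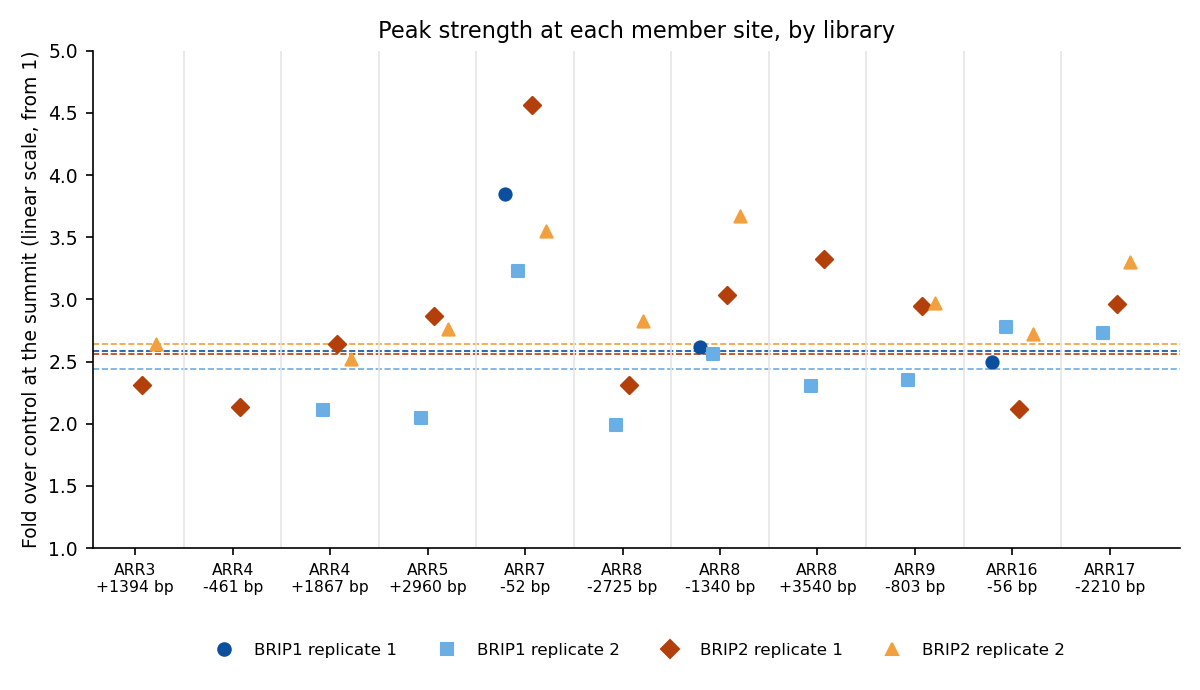
Fold over control (linear y axis from 1) at each of the 11 sites, 1 marker per library. Site labels give the gene and the median distance of the summits from the TSS, and dashed lines are the median fold of each library's list, from 2.44 to 2.64. ARR7 has the highest value in each library but BRIP2 replicate 2, where ARR8 at -1340 bp is higher, and BRIP1 replicate 1 appears at ARR7, ARR8 and ARR16 alone.

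ARR3 and ARR4 shared a site in the 3′ UTR. The pair acts in light and circadian signalling, and ARR4 is known to bind phytochrome B. At ARR3 (chr1:22065617-22067233, minus strand) the fold was 2.31 in BRIP2 replicate 1 and 2.64 in BRIP2 replicate 2 (2.48 ± 0.23, SD, n = 2). Its summits were 1371 and 1417 bp past the start, and the BRIP1 summits nearest to it were 9848 and 9872 bp away. ARR3 was the member called in both BRIP2 libraries and in neither BRIP1 library.

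At ARR4 (chr1:3441988-3444360, minus strand) the 3′ UTR site had a fold of 2.11 in BRIP1 replicate 2, 2.64 in BRIP2 replicate 1 and 2.52 in BRIP2 replicate 2. These summits were 1893, 1867 and 1860 bp past the start, 33 bp apart at most. A second ARR4 site, at -461 bp, was called in BRIP2 replicate 1 alone, with a fold of 2.13. Over each whole list, 5.52 to 6.22% of the summits lay in a 3′ UTR.

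ARR5 and ARR6, early cytokinin response genes whose promoters serve as reporters, also differed. At ARR5 (chr3:17758427-17760950, minus strand) the fold was 2.05 in BRIP1 replicate 2, 2.87 in BRIP2 replicate 1 and 2.76 in BRIP2 replicate 2. Its summits were 443, 386 and 437 bp past the 3′ end and in the 5′ UTR of EDS1 (AT3G48090), a gene of defence signalling whose TSS was the nearest. The BRIP2 peaks, 1111 and 1095 bp wide, reached over the 3′ end of ARR5, and the BRIP1 replicate 2 peak, 587 bp wide, did not. No summit lay near the ARR5 start in any library.

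ARR6 (chr5:25252007-25254318, minus strand) had no summit in its window, but each library had one beyond it. Upstream of the TSS, BRIP1 had it at 4968 and 4966 bp and BRIP2 at 4925 and 5012 bp. Their folds were 3.02, 3.08, 4.05 and 3.67, higher than at most member sites of the same library. They were outside the window and enter no count.

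The members called in BRIP1 replicate 2 and not in BRIP1 replicate 1 had low to middling folds there. At ARR4, ARR5, ARR9 and ARR17 the BRIP1 replicate 2 values ran from 2.05 to 2.73. In that order of genes they ranked at percentiles 25.2, 20.7, 43.3 and 64.9 of the list. Of the 2715 peaks of BRIP1 replicate 2 with a fold from 2 to 2.8, 55.4% were overlapped by a peak of BRIP1 replicate 1, against 94.6% of the 1702 peaks at 2.8 or above. ARR4, ARR5, ARR9 and ARR17 were picked by their absence from BRIP1 replicate 1, so these shares only describe the list. In the same range of 2 to 2.8, the BRIP1 replicate 2 peaks of ARR16 (2.77) and of the middle ARR8 site (2.56) were overlapped. The peak past the 3′ end of ARR8 (2.30) was not. In BRIP1 replicate 1 the lowest fold called at background was 1.69, and no value is listed for a position without a peak. Absence from that list therefore does not show absence of BRIP1.

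Words of the type-B binding core were common at these genes and elsewhere. Within 50 bp of a site's median summit, AGATT or AGATC on either strand was found at 6 of the 11 sites, against 35.2% of the 2982 regions with a peak of all 4 libraries. The sets are unlike, since only 3 of the 11 sites had a peak of all 4 libraries. Of these, the ARR7 and ARR16 sites held the core and the ARR8 site did not. Within 25 bp it was found at 3 sites, against 20.0% of the regions, and 4 sites held it within 50 bp of the summit of each library that called them. In the window from 250 bases before to 50 bases after the TSS, all 10 members held a match, against 79.3% of all protein-coding genes. ARR7 held 9 matches and ARR16 held 7 there, and 0.528% of all genes held 7 or more, a cut taken from the ARR16 count itself. At least 2 matches were held by 9 members (49.5% of all genes) and at least 3 by 4 members (25.3%). The other members held between 1 match (ARR3) and 4 matches (ARR6), and ARR15 held 2.

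The other words were rarer. The sites that held them were not called in all 4 libraries, unlike the regions they are read against. CACGTG was found at 2 of the 11 sites (ARR4 and the ARR8 site past the 3′ end), against 12.1% of the regions, and in none of the 10 promoter windows, against 7.68% of all genes. GAGAGAGA was found at 1 site (ARR3), against 4.90% of the regions, and in 2 promoter windows (ARR5 and ARR7), against 8.38% of all genes. These are matches of letters and do not show that a factor binds. The median-summit windows of ARR5, ARR9, ARR17 and the first and second ARR8 sites held none of the words searched.

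Other genes of the cytokinin pathway were read in the same window. Of 52 genes in 8 lists, 19 had a summit in all 4 libraries, against 14.9% of all genes, 20 in both BRIP1 libraries (15.8% of all genes) and 20 in both BRIP2 libraries (26.7%). The type-A genes had 3 in both BRIP1 libraries and 8 in both BRIP2 libraries. With lists of equal length these became 3 and 5, against 13.6 and 14.3% of all genes. Without BRIP1 replicate 1 there were 7 in the remaining BRIP1 library, against 24.1% of all genes. In all 4 libraries, lists of equal length left 11 of the 52 and 2 of the type-A genes, against 11.1% of all genes. The difference between these lists was not tested. With a −log10 q of at least 10 the 19 genes became 5, and with a fold of 3 or more they became 2, where 8.55 and 3.97% of all genes met the rule. When the gene's own TSS had to be the nearest, 11 of the 52 and 3 of the 10 type-A genes were left in all 4 libraries, against 8.76% of all genes. The histidine kinase receptors had none of 3 in all 4 libraries, although AHK3 was called in 3 libraries and AHK4 in 2. Of the phosphotransfer proteins 1 of 6 (AHP4) was called in all 4 libraries, and of the type-C response regulators none of 2.

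Of the type-B response regulators, 4 of 11 (ARR1, ARR10, ARR18 and ARR20) had a summit in all 4 libraries, against 14.9% of all genes. Of the F-box genes KMD1 to KMD4, whose products target type-B regulators for degradation, 4 of 4 did. With a −log10 q of at least 10 these counts became 0 type-B and 1 KMD gene (8.55% of all genes met that rule). They became 0 and 0 with a fold of 3 or more (3.97%). From 1000 bp upstream to the 3′ end they were 1 and 0 (6.96%), and by the nearest TSS 2 and 2 (8.76%). Mean folds of BRIP1 and then BRIP2 were 2.95 ± 0.039 and 3.52 ± 0.096 at KMD1, 2.44 ± 0.18 and 2.98 ± 0.25 at KMD2, and 2.47 ± 0.30 and 2.83 ± 0.38 at ARR20 (SD, n = 2 libraries each). The TSS of KMD1, KMD3, ARR10 or ARR18 was not the nearest in every library.

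Genes of cytokinin metabolism included stronger peaks than those of most type-A genes. Of the IPT genes of cytokinin synthesis 4 of 9 (IPT3, IPT5, IPT7 and IPT9) had a summit in all 4 libraries, against 14.9% of all genes. So did 4 of 7 CKX oxidases that break cytokinin down (CKX4 to CKX7) and 2 of 10 activation genes (LOG7 and LOG8). With a −log10 q of at least 10 these IPT, CKX and activation counts became 1, 2 and 1 (8.55% of all genes). They were 0, 1 and 1 with a fold of 3 or more (3.97%). From 1000 bp upstream to the 3′ end they were 1, 2 and 2 (6.96%), and by the nearest TSS 2, 3 and 2 (8.76%). LOG8 ranked first of the 52, with mean folds of 4.90 ± 0.22 (BRIP1) and 4.53 ± 0.69 (BRIP2), its summits at 2817, 2836, 2802 and 2841 bp from its TSS. CKX5 followed with 3.46 ± 0.30 and 4.40 ± 0.019, then CKX4 with 3.003 ± 0.42 and 3.88 ± 0.59. IPT3 (2.90 ± 0.055 and 3.05 ± 0.29), CKX6 (3.24 ± 0.16 and 2.74 ± 0.37), CKX7 (2.83 ± 0.56 and 3.03 ± 0.098) and IPT5 (2.38 ± 0.19 and 3.23 ± 0.28) came lower (SD, n = 2 libraries each). For the genes named in these lists each library gives its strongest peak in the window, which at CKX7 was not the same site in all libraries. Summits also lay far apart at IPT9 (-2799, -1625, -2819 and -2533 bp) and LOG7 (2951, 3561, 2902 and 3735 bp). The same held at AHP4 (1244, 1274, 2386 and 2460 bp) and KMD4 (-273, -286, -274 and -1066 bp). A call in all 4 libraries therefore need not mean a shared site. The own TSS of CKX4, of IPT3 and of IPT9 was not the nearest in every library.

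**Figure D4:**
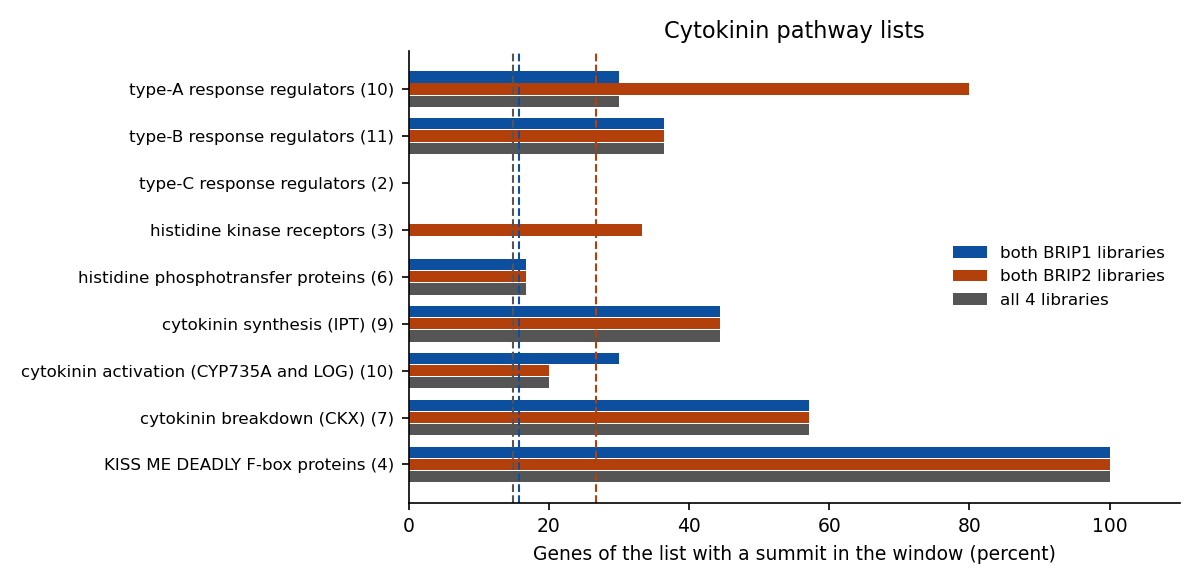
Share of the genes of each list (x axis, percent, number of genes in brackets) with a summit in both BRIP1 libraries, both BRIP2 libraries and all 4 libraries. Dashed lines are the shares among all protein-coding genes, 15.8, 26.7 and 14.9%. The type-A regulators show 8 of 10 genes for BRIP2 and 3 of 10 for BRIP1. Of the 8, ARR5 and ARR17 had only summits nearer to the TSS of another gene.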

How the data were processed

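The authors deposited a peak list per library, with replicates kept apart. Named in the submitters' processing notes are TAIR10, Bowtie, deepTools and, as peak caller, MACS2 2.1.1. Which control was used was not stated. The deposited lists give, per peak, the position, the fold over control at the summit (a ratio), the −log10 of p and q, an integer score and the summit as another value, its offset from the peak start. Fold, −log10 p and q and summit were used as deposited, and the deposited score was not used. A list holds called peaks only, so depth is not stated. Pileup and control were solved from fold and p, and 99.8 to 99.9% of pileups were whole within 0.05.

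Groups came from the sample titles. Peaks on the 5 nuclear chromosomes were placed on the RefSeq annotation of TAIR10.1 with Python 3.11.15, pandas 2.3.3 and scipy 1.17.1. All peaks lay within its chromosomes, and positions count from 1. Peaks overlapping by 1 bp or more were joined into sites. BRIP1 and BRIP2 were compared by exact permutation of log2 folds, with SDs over 2 libraries. No peak was identical between replicates. Functions were tested on simulated data. Alternatives were stricter q or fold, equal lists, other windows, other matching and each library left out. All 10 members are named. Of the pathway lists the genes in all 4 libraries are named, with values for the 10 of highest mean percentile rank, as are AHK3 and AHK4, chosen after their values were seen. A gene next to a member is named where its TSS was nearer to the member's summit or it held that summit. Members and lists were chosen with earlier results of these data known. The other 14 samples were not analysed.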

Additional observations from a re-analysis of the deposited data

How the results depend on the processing

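The count of 3 members in all 4 libraries was 2 or 3 under each alternative threshold, list length or window, except for peaks of fold 3 or more (1). Each library left out gave 3 to 7 members in every library left, against 15.1 to 20.5% of all genes. Members in the BRIP1 libraries left numbered 3 to 7, against 15.8 to 24.1% of all genes. Sites in every library left numbered 3 to 8. Asking for fewer libraries can only raise a count. The high values were those without BRIP1 replicate 1. Of the 3 members, ARR16 was lost with the stricter q and with equal lists, and ARR8 with the window from 1000 bp upstream. At fold 3 or more ARR7 alone was left.

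With −log10 q of at least 10, the members in both BRIP2 libraries numbered 5 (13.6% of all genes met that rule), while the share of all genes in all 4 libraries was 8.55% and the other pathway genes there numbered 5. With fold 3 or more, these values were 2 (8.71%), 3.97% and 2, with 1 member in both BRIP1 libraries and 1 site in all 4. With the best 3637 peaks of each library they were 5 (14.3%), 11.1% and 11, and from 1000 bp upstream to the 3′ end 5 (14.2%), 6.96% and 7. Within 2000 bp of the TSS the share in all 4 libraries was 9.96% with 11 pathway genes, by the nearest TSS 8.76% with 11, and with any base of the peak 16.5%. Members in both BRIP2 libraries numbered 6 within 2000 bp (19.3% of all genes) and 6 by the nearest TSS (15.8%). Words of the type-B core were found at 3 sites within 25 bp of the summit (20.0% of regions), 6 within 50 bp (35.2%) and 8 within 75 bp (48.2%).

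With the replicate number as a block, the differences of 0.19 (ARR7), 0.37 (ARR8) and -0.13 (ARR16) gave an exact sign-flip p = 0.5 each, the smallest that 2 pairs allow, and no call changed. Libraries of the same number did not deviate together (correlation 0.0083 over 2982 regions, a description across regions). Each library left out gave 0.010 to 0.37 at ARR7, 0.23 to 0.50 at ARR8 and -0.31 to 0.050 at ARR16, with the sign reversed at ARR16 without BRIP2 replicate 1.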
